A study of Homo sapiens with 16 samples.

Results

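MAF and 4 genes that MAF is known to switch on in myeloma, ITGB7, CCND2, CCR1 and NUAK1, were followed across 16 gene expression microarrays. The 5 genes were found by the gene name that the array files give each probe, which returned 6 probes of the 50599 non-control probes on the array, 1 for each gene and a second, dim probe for NUAK1. The arrays came from RPMI-8226 and MM.1S, which are human multiple myeloma cell lines, and each line was grown for 6 days in 4 ways: in DMSO, the solvent; in 1 μM GSK126, an inhibitor of the H3K27 methyltransferase EZH2; in 1 μM UNC0638, an inhibitor of the H3K9 methyltransferase G9a; or in both, at 1 μM each. Each of the 8 groups had 2 biological replicates, 1 array each, so p-values rest on the spread between pairs of arrays. No group carried an engineered allele, all groups of a line shared that line's own translocation, and each line stood alone for its tumour. The study asked how blocking both enzymes changes gene expression in myeloma, and the comparisons here ask where MAF and the genes under it stood after that.

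MAF is a leucine zipper transcription factor that binds long palindromic sites called MAF recognition elements. In a subset of myelomas a translocation places MAF beside an immunoglobulin enhancer, and both lines used here belong to that subset. The gene program driven by MAF in such cells is known for integrin β7, which holds plasma cells to stroma, and for cyclin D2, which carries cells through the G1 phase. CCR1, a receptor for the chemokines CCL3 and CCL5, and NUAK1, a kinase of the AMPK family also called ARK5, belong to the same program.

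MAF recognition elements hold the letters TGACTCA or TGACGTCA at their centre and TGCTGA at their ends, where the last 3 letters of the end motif overlap the centre. Promoter windows from RefSeq, 250 bases before to 50 bases after the start in GRCh38.p14, were held for 4 of the 5 genes, without CCND2, and were read on both strands. Of these, the window of MAF itself held a match, which is why its sequence is shown, and the windows of ITGB7, CCR1 and NUAK1 held none of the 3 motifs. The 30 bases printed are the minus strand of chr16:79600764-79600793, and the match inside them, in capitals, begins 45 bases before the start of MAF.
MAF promoter: tcatttggaccTGACGTCAcgagtgctata
TGCTGA also occurred once in that window, in reverse, 22 bases before the start. Over all 35116 windows of this length, TGACTCA was found in 4.95%, TGACGTCA in 1.85% and TGCTGA in 17.3%. A match of letters is a description of the sequence and not a site of binding, and no readout of binding was used.

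The scanner files place the leading probes in the GRCh37 build, MAF at chr16:79628258-79628317, CCR1 at chr3:46243829-46243888 and the other 3 on chromosome 12: CCND2 at chr12:4414040-4414099, ITGB7 at chr12:53585157-53585216 and NUAK1 at chr12:106457546-106457605. The CCND2 probe is on the plus strand and the others on the minus strand. Whether a probe lies in an exon or a UTR was not determined, because no annotation of that build was used here. All 5 leading probes were well above background on 16 of 16 arrays and none was saturated, so the values of these 5 probes are measured levels. The second NUAK1 probe was above background on 7 of 16 arrays and was kept for tests in MM.1S cells and between the lines, not for those within RPMI-8226. Levels are given as log2 intensity relative to the 75th percentile of the same array, which is 0 on this scale, and the level of one probe cannot be set against that of another.

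The arrays were of similar quality within a line, with replicates correlating at r = 0.985 to 0.991 in RPMI-8226 and 0.993 to 0.995 in MM.1S cells, and with 46.5 to 52.8% of spots above background. The 75th percentile lay at an intensity of 254 to 347 on the RPMI-8226 arrays and 430 to 476 on the MM.1S arrays. All 7 plasma cell markers (SDC1, TNFRSF17, CD38, XBP1, PRDM1, IRF4 and SLAMF7) were above background on every array. Of the 2 earlier B cell markers measured, PAX5 was above background on no array and MS4A1 on 7 of 16, none of them a DMSO array. Probes for some markers of other cell types were also above background on all 16 arrays, namely CD2 and CD3D of T cells, CD14 of monocytes and KRT8 of epithelium. Others were above background on part of the arrays: EPCAM on 12, HBB on 10, CD3E on 9, CSF1R on 8 and NKG7 on 3. KLRD1 and ALAS2 were so on none. All arrays of a line shared 1 scan and the lines had different scans, so cell line and scan cannot be told apart.

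In cells given DMSO, 3 of the 5 genes differed between the lines (adjusted p under 0.05 from limma over all probes tested), where 57.7% of all probes did. MAF, the factor itself, was at 5.83 and 6.28 in RPMI-8226 cells and at 4.75 and 5.12 in MM.1S cells. MAF was thus the gene of the 5 that was higher in RPMI-8226 cells, by 1.13 on the log2 scale (SE 0.21, limma adjusted p = 9.31e-04). NUAK1 went the other way, at 3.15 and 3.24 against 4.28 and 4.26, a difference of -1.07 (SE 0.13, limma adjusted p = 4.29e-05). CCND2 was at 5.13 and 5.01 in RPMI-8226 cells and at 6.00 and 5.77 in MM.1S cells. This difference of -0.81 (SE 0.15) also passed the test, with an adjusted p of 7.38e-04. ITGB7 (-0.23, 95% interval -0.52 to 0.06, adjusted p = 0.165) and CCR1 (-0.22, interval -0.47 to 0.03, adjusted p = 0.122) did not pass. The line with more MAF had lower values of all 4 target genes, 2 of them past the test. Of all probes, 28.9% were higher and 28.8% lower in RPMI-8226 cells. The calls of MAF, NUAK1 and CCND2 were kept in all 26 alternative settings. Under quantile normalization ITGB7 passed (-0.53, limma adjusted p = 0.00124), as did CCR1 (-0.33, limma adjusted p = 0.0171). CCR1 also passed with the percentile over detected probes (-0.28, limma adjusted p = 0.0409). The difference was -0.41 for ITGB7 without RPMI-8226 DMSO replicate 2 and -0.36 for CCR1 without RPMI-8226 DMSO replicate 1.

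**Figure D1:**
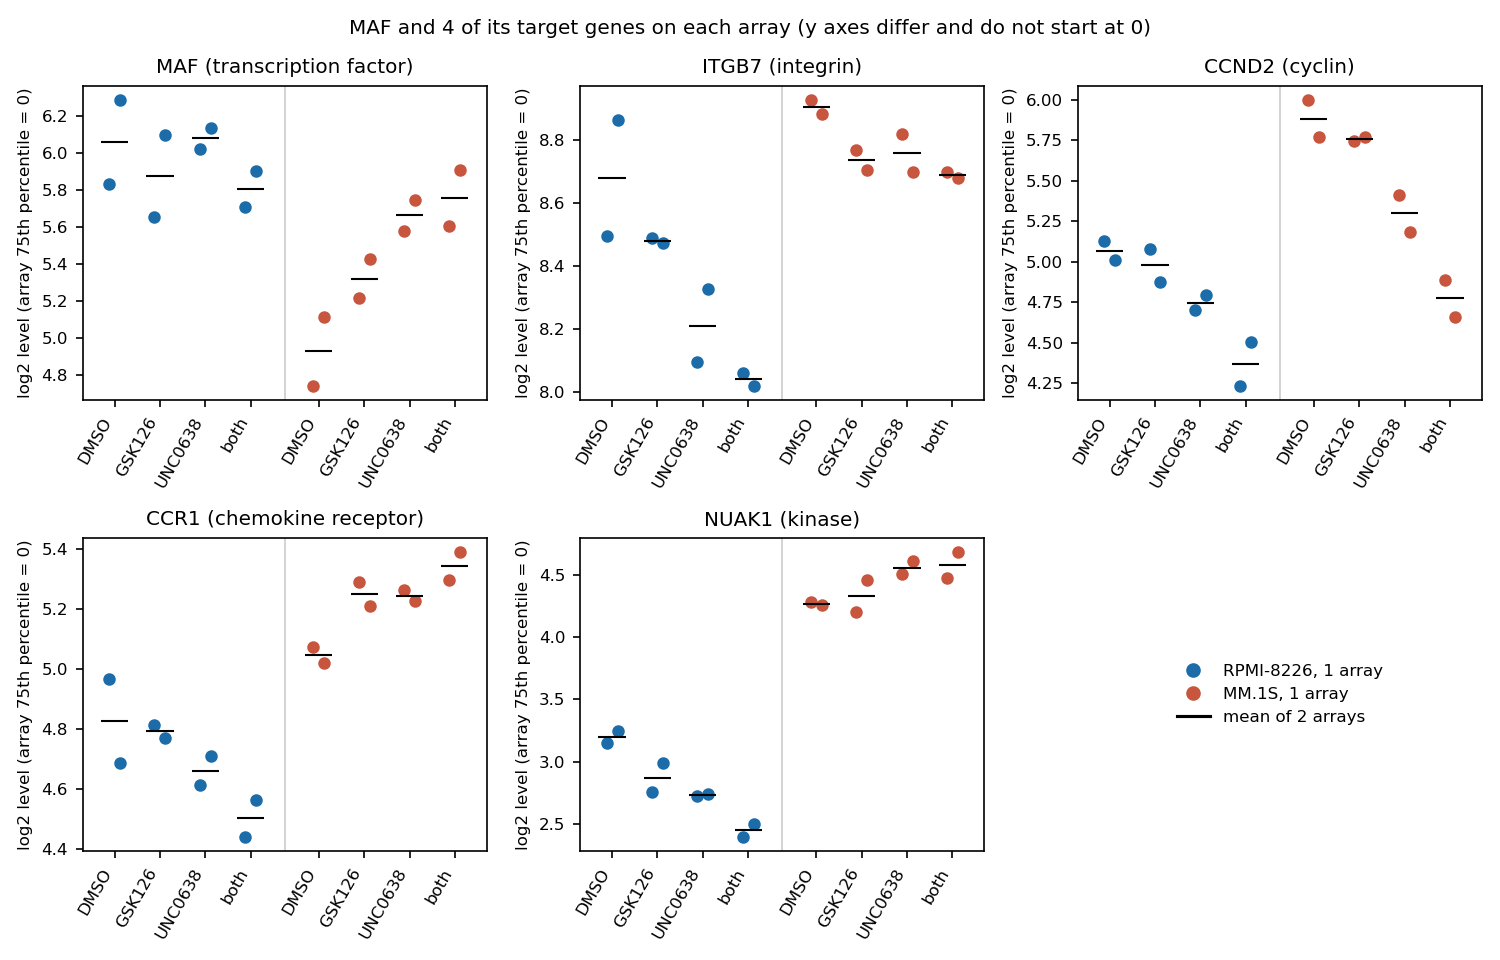
Levels of MAF, ITGB7, CCND2, CCR1 and NUAK1 on each of the 16 arrays, as log2 intensity relative to the array's 75th percentile (0), with RPMI-8226 in blue and MM.1S in red. Each point is 1 array, the bar is the mean of 2 arrays, "both" is GSK126 + UNC0638, and each panel has its own y axis; CCND2 is lowest under both inhibitors in each line, while MAF rises from 4.75 and 5.12 to 5.60 and 5.91 in MM.1S cells.

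The combination treatment lowered CCND2 in both lines. In RPMI-8226 cells CCND2 went from 5.13 and 5.01 in DMSO to 4.24 and 4.51, a change of -0.70 (SE 0.16, limma adjusted p = 0.0377), or 1.62-fold lower. In MM.1S cells it went from 6.00 and 5.77 to 4.89 and 4.66, a change of -1.11 (SE 0.13, limma adjusted p = 0.00119), or 2.15-fold lower. Treated and DMSO arrays did not overlap in either line, and such a fall without overlap was seen for 40.2% of all probes in RPMI-8226 and for 46% in MM.1S cells. The difference between the 2 changes was 0.41 (95% interval -0.05 to 0.87, adjusted p = 0.227), which did not pass the test. The call in MM.1S cells was kept in all 19 alternative settings, though under quantile normalization the change was -0.69. In RPMI-8226 cells it was lost in 10 of 19, among them every fit that left out 1 DMSO, UNC0638 or combination array (adjusted p 0.0592 to 0.184).

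With a single inhibitor, CCND2 passed the test in MM.1S cells given UNC0638. With GSK126 it stayed at 5.75 and 5.77 (change -0.12, SE 0.13, adjusted p = 0.59), and with UNC0638 it was at 5.41 and 5.18 (change -0.58, SE 0.13, limma adjusted p = 0.0239). The combination was lower than GSK126 by 0.98 (SE 0.13, limma adjusted p = 0.00395), a call kept in all 19 settings, where 36.8% of all probes differed. Against UNC0638 alone the further change was -0.52 (95% interval -0.85 to -0.20, adjusted p = 0.054), just short of the threshold. In RPMI-8226 cells CCND2 was at 5.08 and 4.88 with GSK126 and at 4.70 and 4.79 with UNC0638, and neither passed (adjusted p = 0.863 and 0.615). The UNC0638 call in MM.1S cells was lost without DMSO replicate 1 (adjusted p = 0.11) or UNC0638 replicate 2 (0.111), and under quantile normalization its change shrank to -0.29 (adjusted p = 0.205).

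MAF itself rose in MM.1S cells. Against 4.75 and 5.12 in DMSO, it was at 5.22 and 5.43 with GSK126, at 5.58 and 5.75 with UNC0638 and at 5.60 and 5.91 with both. All 6 treated arrays were above both DMSO arrays. A rise without overlap was seen for 24.3%, 28.8% and 32.9% of all probes with GSK126, UNC0638 and both. The rise was 0.73 with UNC0638 (SE 0.17, limma adjusted p = 0.0254) and 0.83 with the combination treatment (SE 0.17, limma adjusted p = 0.00863), or 1.66-fold and 1.77-fold, while GSK126 alone gave 0.39 (95% interval -0.03 to 0.81, adjusted p = 0.202). The combination was 0.09 above UNC0638 (interval -0.33 to 0.51, adjusted p = 0.744) and 0.43 above GSK126 (interval 0.01 to 0.86, adjusted p = 0.0973). The combination call was kept in all 19 settings, with a rise of 1.33 under quantile normalization, and the UNC0638 call was lost without DMSO replicate 1 (adjusted p = 0.108), UNC0638 replicate 1 (0.0674) or UNC0638 replicate 2 (0.113).

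In RPMI-8226 cells MAF was at 5.83 and 6.28 in DMSO, 5.65 and 6.10 with GSK126, 6.02 and 6.14 with UNC0638 and 5.71 and 5.90 with both. The ranges overlapped throughout, and the combination gave -0.25 (95% interval -0.78 to 0.28, limma adjusted p = 0.464). The response of MAF to the combination treatment differed between the lines by -1.08 (RPMI-8226 minus MM.1S, SE 0.30, limma adjusted p = 0.039), where 13.1% of all probes differed. This difference was lost in 13 of 26 settings, with adjusted p-values of 0.0539 to 0.136 without any 1 of 11 arrays: RPMI-8226 DMSO replicate 2, either UNC0638 or combination replicate of RPMI-8226, MM.1S DMSO replicate 1, either GSK126 or UNC0638 replicate of MM.1S, and MM.1S combination replicate 2. Under both inhibitors the lines came to lie close together, with MAF between 5.60 and 5.91 on all 4 arrays.

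NUAK1 fell in RPMI-8226 cells with the combination, and its values with each single inhibitor were also below DMSO. It was at 3.15 and 3.24 in DMSO, 2.75 and 2.99 with GSK126, 2.72 and 2.74 with UNC0638 and 2.39 and 2.50 with both. No treated array reached a DMSO array, and both combination arrays were below every other array of the line. A fall without overlap was seen for 24.4% of all probes with GSK126, 26.7% with UNC0638 and 40.2% with both. The combination change was -0.75 (SE 0.14, limma adjusted p = 0.0229), or 1.68-fold lower, against -0.47 for UNC0638 (adjusted p = 0.33) and -0.33 for GSK126 (adjusted p = 0.489). The combination call was lost in 8 of 19 settings, including each fit without 1 DMSO, UNC0638 or combination array (adjusted p 0.0572 to 0.126).

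In MM.1S cells NUAK1 moved the other way by value, from 4.28 and 4.26 in DMSO to 4.47 and 4.68 with the combination (0.31, 95% interval 0.01 to 0.61, adjusted p = 0.0774). This rise passed in 5 of 19 settings, and under quantile normalization it was 0.66 (adjusted p = 0.00623). The second NUAK1 probe gave 0.23 there (interval -0.03 to 0.49, adjusted p = 0.113). The difference between the lines in the response of NUAK1 was -1.06 (SE 0.18, limma adjusted p = 0.00495), and it was kept in 25 of 26 settings, the exception being the mean over both probes (-0.78, adjusted p = 0.0597). The second probe alone gave -0.51 (adjusted p = 0.47). That probe was not well above background on any RPMI-8226 array. Neither its value nor the mean over both probes can therefore decide on this difference. With UNC0638 alone the same difference was -0.75 (SE 0.18, adjusted p = 0.0582), and it passed without either GSK126 replicate of RPMI-8226 (0.0485).

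CCR1 was at 5.07 and 5.02 in DMSO, 5.29 and 5.21 with GSK126, 5.26 and 5.23 with UNC0638 and 5.30 and 5.39 with both in MM.1S cells. Every treated array was above both DMSO arrays. Such a rise was seen for 24.3%, 28.8% and 32.9% of all probes with GSK126, UNC0638 and both. CCR1 rose by 0.30 with the combination (SE 0.08, limma adjusted p = 0.0222), or 1.23-fold. In RPMI-8226 cells it was at 4.97 and 4.69 in DMSO and at 4.44 and 4.56 with both, a change of -0.33 (95% interval -0.69 to 0.04, adjusted p = 0.193). The response differed between the lines by -0.62 (SE 0.16, limma adjusted p = 0.0307). Under quantile normalization the MM.1S rise was 0.76. Its call was lost in 7 of 19 settings, with adjusted p-values of 0.0614, 0.0943 and 0.0917 without DMSO replicate 1, DMSO replicate 2 and combination replicate 2. The line difference was lost in 9 of 26, at 0.0569 to 0.103 without RPMI-8226 DMSO replicate 1, RPMI-8226 combination replicate 1, or either DMSO or combination replicate of MM.1S.

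ITGB7 did not pass the test in any comparison. In RPMI-8226 cells it went from 8.49 and 8.86 in DMSO to 8.49 and 8.47 with GSK126, 8.10 and 8.33 with UNC0638 and 8.06 and 8.02 with both. The 2 combination arrays were the lowest of the line, with a change of -0.64 (95% interval -1.05 to -0.23, limma adjusted p = 0.0581). With the replicate number as a block, since same-numbered RPMI-8226 arrays deviated together, the same change had an adjusted p of 0.0368, and it passed in 4 of 19 settings in all. In MM.1S cells ITGB7 stayed between 8.68 and 8.93 on all 8 arrays, and the combination gave -0.22 (interval -0.41 to -0.02, adjusted p = 0.0633), a value that turned to 0.12 under quantile normalization.

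**Figure D2:**
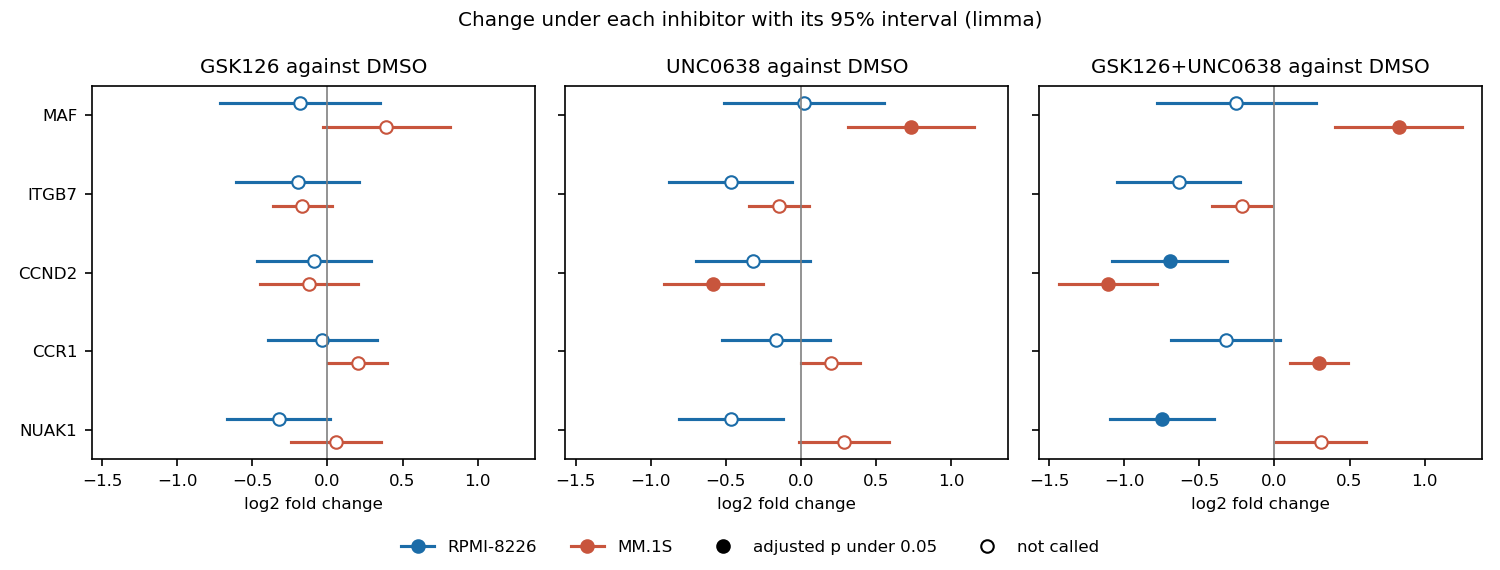
Log2 fold change of each gene against DMSO with GSK126, UNC0638 or both, in RPMI-8226 (blue) and MM.1S (red), with 95% intervals from limma. Filled points passed an adjusted p of 0.05: CCND2 and NUAK1 fell with both inhibitors in RPMI-8226 cells, and CCND2 fell while MAF and CCR1 rose in MM.1S cells.

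By count, the combination treatment lowered 2 of the 5 genes and raised none in RPMI-8226 cells, where 5.46% of all probes fell and 7.11% rose. The median change of the 5 was -0.64, beside -0.14 over all 23199 probes tested, of which 12.6% were called. In MM.1S cells it raised 2 and lowered 1, where 22.2% of all probes rose and 31.5% fell, 53.6% in all, and the median of the 5 was 0.30 beside -0.12 over 25102 probes. With UNC0638 alone, 1 rose and 1 fell in MM.1S cells (29.5% of all probes called, 12.8% higher and 16.7% lower) and limma called 0 in RPMI-8226 cells (0.638%), where 2 had an unadjusted p under 0.05. With GSK126 alone limma called 0 in both lines (0.599% and 7.48% of all probes), with 0 and 1 of the 5 at an unadjusted p under 0.05 in RPMI-8226 and MM.1S cells. The line difference in the response was called by limma for 0 of 5 with GSK126 and for 0 of 5 with UNC0638, with 0 and 3 at an unadjusted p under 0.05, where 0.776% and 2.85% of all probes differed.

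By range, both treated arrays of RPMI-8226 cells were below both DMSO arrays for 2 of the 5 genes with GSK126, 3 with UNC0638 and 4 with both, and above for none. A fall without overlap was seen for 24.4%, 26.7% and 40.2% of all probes of that line. In MM.1S cells they were above for 2 and below for 1 with GSK126, and above for 3 and below for 2 with UNC0638 and with both. A fall without overlap was seen for 36.5%, 40.6% and 46% of all MM.1S probes in that order, and a rise for 24.3%, 28.8% and 32.9%. The 3 treatments of a line share its DMSO arrays, so their values are not independent of each other.

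Set against the single agents, the combination differed on 0 of the 5 genes in RPMI-8226 cells by limma, with 3 against GSK126 and 0 against UNC0638 at an unadjusted p under 0.05 (2.58% and 3.38% of all probes called). In MM.1S cells the count was 1 against GSK126 and 0 against UNC0638, with 2 and 1 at an unadjusted p under 0.05, where 36.8% and 13% of all probes were called. Departure from the sum of the 2 single effects was called for 0 of 5 in either line by limma, with 0 at an unadjusted p under 0.05, and for 0.147% and 0% of all probes. The departures of RPMI-8226 lay between -0.29 and 0.04 and those of MM.1S between -0.40 and 0.10. The value farthest from 0 was that of CCND2 in MM.1S cells, -0.40 (95% interval -0.86 to 0.06).

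**Figure D3:**
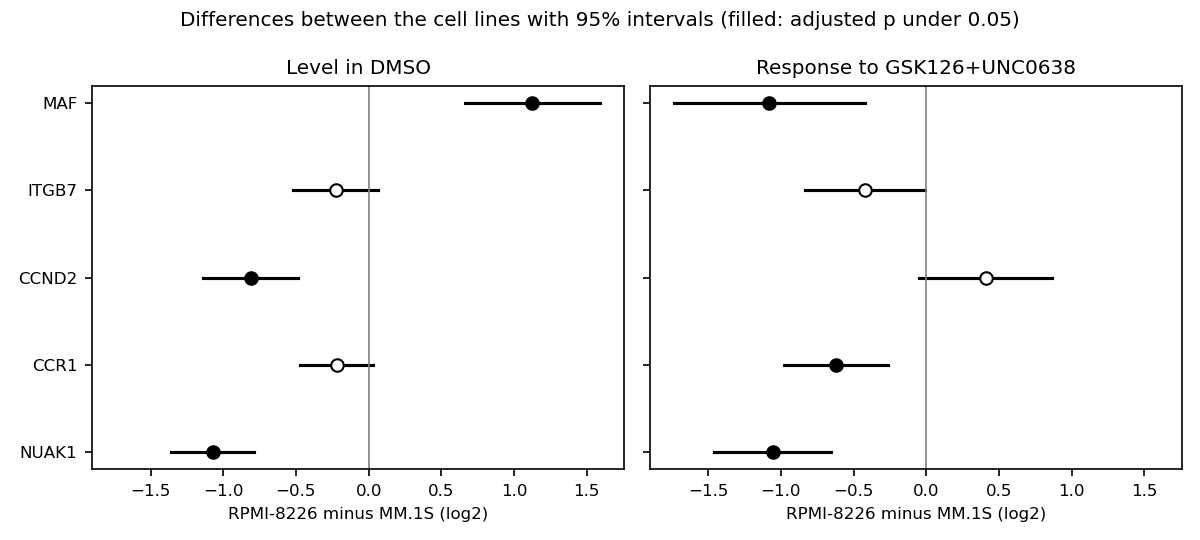
Difference between the lines (RPMI-8226 minus MM.1S, log2) in the level in DMSO and in the response to GSK126 + UNC0638, with 95% intervals from limma over 16 arrays. Filled points passed an adjusted p of 0.05: MAF, CCND2 and NUAK1 differed in level, and MAF, CCR1 and NUAK1 in response.

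Over the 16 arrays, each centred on the mean of its line, the pattern of MAF across treatments was unlike that of CCND2 (r = -0.58) and ITGB7 (r = -0.02), and nearer to that of NUAK1 (r = 0.616) and CCR1 (r = 0.416). Within MM.1S cells, over 8 arrays, MAF ran with NUAK1 (r = 0.881) and CCR1 (r = 0.786) and against ITGB7 (r = -0.855) and CCND2 (r = -0.877). Within RPMI-8226 cells, also over 8 arrays, the values were 0.535, 0.0223, 0.443 and 0.219 in that order. Among 21364 probes NUAK1 ranked 1403 and CCR1 3461 in likeness to MAF over the 16 arrays, so many other probes lay nearer. How many probes reached such values within a line was not counted. Across 21364 probes the closest named genes to MAF included FCER2, the low affinity IgE receptor (r = 0.94), the potassium channel KCNH2 (r = 0.917), MIA3 (r = 0.916) and the cytokine IL16 (r = 0.916). The named gene closest to CCND2 was RUVBL2, an ATPase of chromatin remodelling complexes (r = 0.983), to ITGB7 D2HGDH (r = 0.932), to CCR1 ZNF192P1 (r = 0.896) and to NUAK1 the sialyltransferase ST6GAL1 (r = 0.91). These points share treatments and replicate numbers, so the values describe likeness and carry no test.

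The counts of the lists below stand beside these shares of all probes with the combination. In RPMI-8226 cells 7.11% rose and 5.46% fell, and in MM.1S cells 22.2% rose and 31.5% fell. Of 11 genes of the MAF family and its zipper partners, 10 were tested in RPMI-8226 cells, where the combination raised 2 and lowered none. NFE2, a partner of the small MAF proteins, was not well above background in DMSO. NFE2 with both was 2.55-fold above the lowest above-background signal of the DMSO arrays. Its probe passed the filter in this line through treated groups alone, so its call is no support. With normexp background correction its fitted change shrank from 2.98 to 0.54. BACH2, a repressor that also pairs with small MAF proteins, went from -4.13 and -3.92 in DMSO to -2.60 and -2.52 with both. Its rise was 1.46 (SE 0.20, limma adjusted p = 0.00729), and 0.52 with normexp. In MM.1S cells 1 of 9 rose and 3 fell, with the small MAF proteins MAFK at -0.82 (SE 0.11, limma adjusted p = 0.00188) and MAFF at -0.81 (SE 0.16, limma adjusted p = 0.00662).

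Of 9 genes otherwise described with MAF, 5 were tested in each line. In MM.1S cells 4 rose and 1 fell with the combination (22.2% and 31.5% of all probes), and limma called 0 in RPMI-8226 cells, with 2 at an unadjusted p under 0.05. CX3CR1, the fractalkine receptor, was not well above background in DMSO-treated MM.1S cells and was at -2.04 and -1.06 with GSK126, -2.26 and -1.83 with UNC0638 and -0.42 and 0.83 with both. With the combination it was 31.6-fold above the lowest above-background signal of the DMSO arrays. As its probe passed the filter in this line through the treated groups alone, the limma adjusted p of 5.18e-04 is no support. Its fitted change of 5.44 was 2.77 with normexp. In RPMI-8226 cells CX3CR1 lay between 6.44 and 7.0 on all 8 arrays, with a combination change of -0.12 (95% interval -0.57 to 0.32). RND3, a small GTPase, rose in MM.1S cells by 2.32 with the combination (SE 0.35, limma adjusted p = 0.00254) and by 2.32 with GSK126 alone (limma adjusted p = 0.0205). With normexp its combination rise was 1.28.

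**Figure D4:**
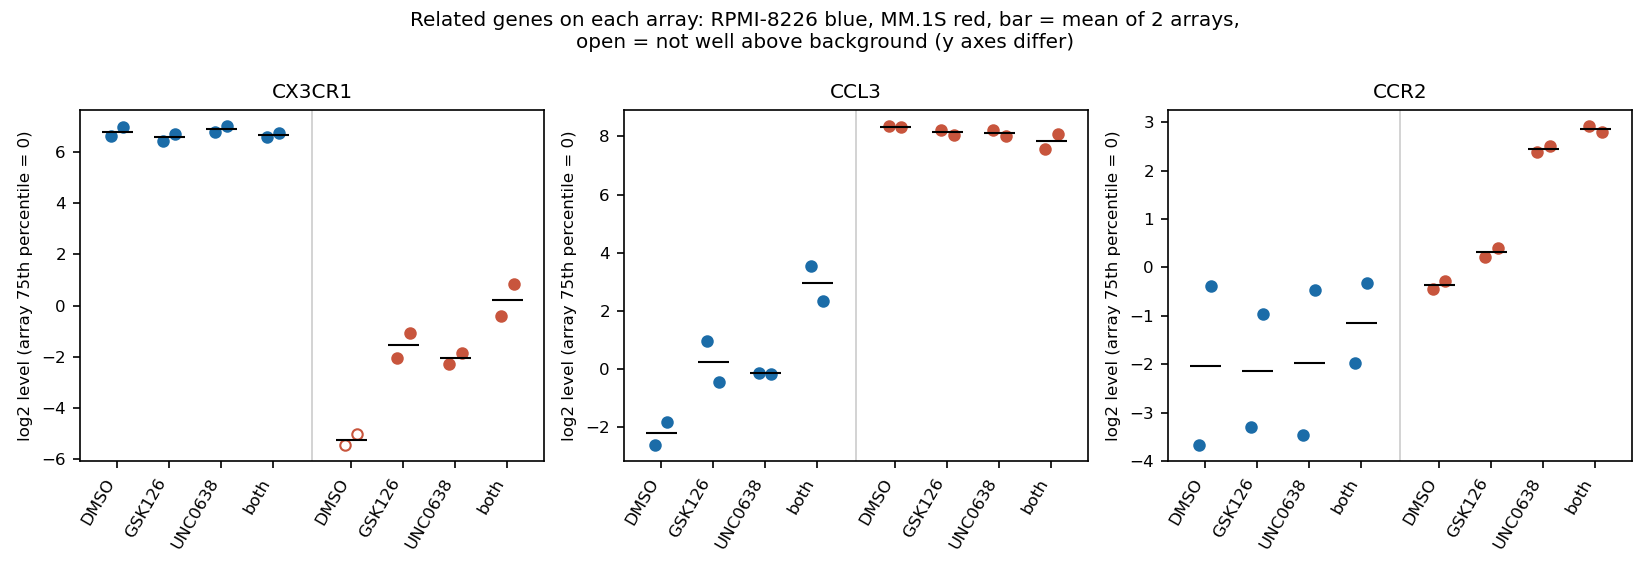
Levels of CX3CR1, CCL3 and CCR2 on each array (log2 intensity relative to the array's 75th percentile), with RPMI-8226 in blue, MM.1S in red, bars for the mean of 2 arrays and open points for probes not well above background. CCL3 in RPMI-8226 cells stands at 3.56 and 2.34 with both inhibitors, above every other array of that line, and CX3CR1 in MM.1S cells is above background on the treated arrays and not on the DMSO arrays.

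Among 14 genes of MAF turnover and induction, 2 rose in RPMI-8226 cells, both AP-1 subunits, JUN by 2.07 (SE 0.28, limma adjusted p = 0.00705) and FOS by 1.52 (SE 0.38, limma adjusted p = 0.047). FOS lost its call under quantile normalization (adjusted p = 0.0543), and with normexp its change was 0.72. In MM.1S cells 1 of the 14 rose, FOSB by 1.62 (SE 0.49, limma adjusted p = 0.0325), and 7 fell, among them JUND by 1.02 (change -1.02, SE 0.12, limma adjusted p = 9.73e-04). Of all MM.1S probes, 22.2% rose and 31.5% fell, 53.6% in all.

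ITGB7 pairs with the integrin α4 or αE chain, and of 6 tested partners and ligands ITGB1, the β1 chain that also pairs with α4, rose in both lines. The rise was 1.06 in RPMI-8226 (SE 0.18, limma adjusted p = 0.0164) and 0.77 in MM.1S cells (SE 0.11, limma adjusted p = 0.00215). In MM.1S cells 2 of the 6 rose and 2 fell; MADCAM1, the gut addressin bound by α4β7, was among those called higher but was not well above background in either group, and its call was lost with normexp (adjusted p = 0.129).

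Of 9 tested partners of CCND2 limma called 0 in RPMI-8226 cells, with 3 at an unadjusted p under 0.05. Of the same 9 in MM.1S cells 2 rose and 4 fell, where 22.2% and 31.5% of all probes did. CCND3, another D cyclin, was at -0.87 (SE 0.10, limma adjusted p = 9.49e-04) and CDK6, a kinase that D cyclins activate, at -0.86 (SE 0.12, limma adjusted p = 0.00189). Under quantile normalization CDK6 was at -0.54.

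CCR1 ligands and related receptors gave 5 rises and no fall among 9 tested in RPMI-8226 cells. CCL3, a main ligand of CCR1, went from -2.62 and -1.80 in DMSO to 3.56 and 2.34 with both, a rise of 5.16 (SE 0.57, limma adjusted p = 0.00347), or 35.8-fold, and 4.15 with normexp. CCL3L3, a near-identical copy whose signal may not be separable from CCL3, was not well above background in DMSO. CCL3L3 with both was 19-fold above the lowest above-background signal of the DMSO arrays. Its probe passed the filter in this line through treated groups alone, so its call is no support. Its fitted change of 4.97 was 2.41 with normexp. In MM.1S cells CCL3 was between 7.57 and 8.35 on all 8 arrays, with a combination change of -0.50 (adjusted p = 0.0648), and the difference between the lines was 5.66 (SE 0.68, limma adjusted p = 6.63e-04). CCL3 was named for its large change in RPMI-8226 cells, so the p of that difference is no support. Of 8 tested there, 3 rose and 1 fell. The related receptors CCR2, by 3.22 (SE 0.11, limma adjusted p = 8.38e-05), and CCR3, by 2.70 (SE 0.17, limma adjusted p = 2.27e-04), were among the rises.

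CCR2 in RPMI-8226 cells differed widely between replicates, at -3.67 and -0.39 in DMSO and at -1.96 and -0.33 with both. Its change there was 0.89 (95% interval -2.60 to 4.37). With the replicate number as a block, a fit of this gene added after the data were seen, the interval was -0.06 to 1.84 (limma adjusted p = 0.151).

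Of the 8 genes around NUAK1, limma called 0 in RPMI-8226 cells, with 2 at an unadjusted p under 0.05, and 2 fell in MM.1S cells. MYC, an oncogene whose tumours have been described to need NUAK1, went from 5.81 and 5.60 in DMSO to 4.06 and 3.94 with both, a change of -1.71 (SE 0.12, limma adjusted p = 2.94e-04). PPP1R12A, a myosin phosphatase subunit that NUAK1 phosphorylates, changed by -0.37 (limma adjusted p = 0.00894), which did not pass under quantile normalization (-0.10, adjusted p = 0.309) or with the percentile over detected probes (adjusted p = 0.0919).

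Over the 7 lists together, 61 of 74 genes were tested in RPMI-8226 cells, of which 10 rose and 0 fell with the combination (7.11% of all probes rose and 5.46% fell), 1 rose with GSK126 (0.543% of all probes rose and 0.056% fell) and limma called 0 with UNC0638 (0.556% and 0.0819%), where 9 had an unadjusted p under 0.05. In MM.1S cells 59 were tested, and the combination raised 13 and lowered 20 (22.2% and 31.5% of all probes), GSK126 raised 6 and lowered 2 (5.06% and 2.42% of all probes), and UNC0638 raised 7 and lowered 16 (12.8% and 16.7%). The median change of these genes with the combination was 0.05 in RPMI-8226 and -0.06 in MM.1S cells. The combination rises include NFE2 and CCL3L3 in RPMI-8226 and CX3CR1 and MADCAM1 in MM.1S cells. Those passed the filter only through treated groups, so their calls are no support. The same holds for these genes in the GSK126 and UNC0638 counts. The 1 rise with GSK126 in RPMI-8226 cells is that of NFE2.

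**Figure D5:**
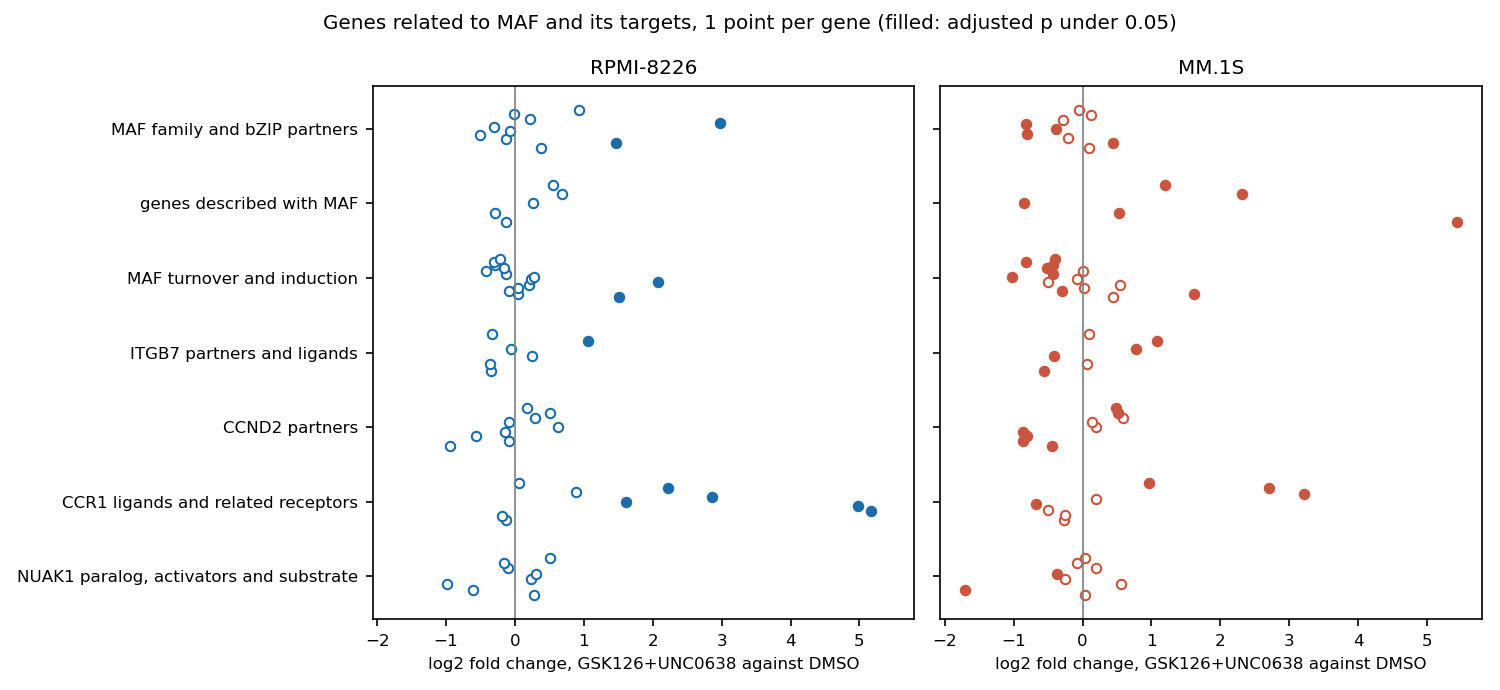
Log2 fold change with GSK126 + UNC0638 against DMSO for each tested gene of 7 lists around MAF and its targets, in RPMI-8226 (left) and MM.1S (right) cells, 1 point per gene and filled where the adjusted p was under 0.05. All 10 filled points in RPMI-8226 cells are rises, led by CCL3, while MM.1S cells show 13 rises and 20 falls. The rises include NFE2 and CCL3L3 (RPMI-8226) and CX3CR1 and MADCAM1 (MM.1S), which passed the filter only through treated groups.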

How the data were processed

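Total RNA of 16 cell cultures was hybridised to 1-colour Agilent arrays. The authors extracted spot intensity values with Agilent Feature Extraction 10.7, and the deposited scanner files give GRCh37 positions. The deposited table of the whole series holds the same intensity values, rounded, for 62976 spots (99.9958% equal to 3 digits). Processed signals were log2-transformed, set against each array's 75th percentile and averaged over the spots of a probe, leaving out control spots and outlier flags. A probe was tested where both arrays of a group were well above background. Scaling to a percentile removes changes that most probes share. Differences were tested with limma 3.58.1 (R 4.3.3) over 8 arrays of a line or over all 16, with Benjamini-Hochberg adjustment over all probes tested and a threshold of 0.05. A gene was represented by its brightest probe on average.

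The genes and lists were chosen with earlier results of these data known, and some genes of the lists are not reported here. From each list the text names at most 2 genes per line, those with the largest called changes under the combination treatment. Fold changes against probes below background are taken against the lowest signal above background on each array. They allow nothing for array error and depend on the processing, so they are no lower bounds. The fitted changes of these probes with normexp were smaller. Same-numbered arrays deviated together in RPMI-8226 cells (r = 0.254 to 0.415 in 6 of 6 pairs of groups). The alternatives were quantile normalization, a percentile over detected probes, normexp (offset 50), no filter, a stricter filter, the series table, a replicate block, an intensity trend, gene means, other sets of arrays in the fit, and each array left out. The fit was tested on simulated data with independent arrays, which lack the shared deviations of same-numbered RPMI-8226 arrays. The number of arrays limits the precision.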

Additional observations from a re-analysis of the deposited data

Results flagged for a closer look

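Groups held 2 arrays, too few to look for an outlying one. The results below are those in which the response differed between the lines (limma interaction, RPMI-8226 minus MM.1S, log2), each named gene being tested for each treatment.

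Among MAF and its targets this held for the combination treatment of NUAK1 (-1.06), MAF (-1.08) and CCR1 (-0.62). Of the related genes, CCL3 (5.66), CCL3L3 (5.65), NFE2 (2.93), JUN (2.57), JUND (1.30), BACH2 (1.02), MYC (1.09), CDK6 (0.72) and PPP1R12A (0.68) had the higher log2 change in RPMI-8226 cells. For JUND, MYC, CDK6 and PPP1R12A the called change was a fall in MM.1S cells. CX3CR1 (-5.56) and RND3 (-1.64) responded higher in MM.1S cells. Related genes were named for the largest called combination change in a line, so their passing here is largely fixed by that choice and is no support. Of all probes, 13.1% differed with the combination, 0.776% with GSK126 and 2.85% with UNC0638. With GSK126 alone the difference passed for NFE2 (2.94) and CX3CR1 (-3.89), and with UNC0638 alone for CX3CR1 (-3.07), JUN (2.65) and MYC (1.18). The values of CX3CR1, NFE2 and CCL3L3 include a group not well above background and are no bound. These 3 genes passed the filter only through groups in which they are high, so that they differed is no support. NFE2 was well above background on no MM.1S array and on no DMSO array of RPMI-8226. The scan of each line cannot be told apart from the line.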

How the results depend on the processing

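The counts of the 5 genes called that moved by over 1.5 times were these. For the combination against DMSO in RPMI-8226 cells (2), quantile normalization and the percentile over detected probes gave 1, no filter and only the compared groups 0, and 1 fit over 16 arrays 4. In MM.1S cells, that against DMSO (3) became 5 with the intensity trend, that against GSK126 (1) became 4 with quantile normalization and 2 with the trend or gene means, and that against UNC0638 (0) became 1 with normexp, the stricter filter, the trend or gene means. UNC0638 against DMSO there (2) gave 0 with no filter or only the compared groups and 4 with the trend. Against GSK126 in RPMI-8226 cells (0) the trend and the fit over 16 arrays gave 1. The level in DMSO (3) gave 5 with quantile normalization, 1 higher and 4 lower. The line difference in the combination response (3) gave 1 with no filter or only the compared groups, and that for UNC0638 (0) gave 1 with quantile normalization, detected probes, normexp, the stricter filter or the trend. The cause was not tested. Quantile normalization also turned UNC0638 in MM.1S cells from 1 higher and 1 lower to 3 higher and 0 lower, and the combination against GSK126 from 0 and 1 to 3 and 1.

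With the replicate number as a block the counts became 5 for the combination against DMSO, 2 against GSK126 and 1 against UNC0638 in MM.1S cells, where only 5 of 6 pairs of groups correlated over 0.1 (0.0847 to 0.225), and 2 for the line difference with UNC0638 (NUAK1, adjusted p = 0.0266, and MAF, 0.044). In RPMI-8226 cells it added ITGB7 and changed no other call. Leaving out 1 array gave 0 to 2 for the combination in RPMI-8226 cells, 2 to 3 in MM.1S cells, 0 to 2 for UNC0638 in MM.1S cells, 3 to 4 for DMSO, 1 to 3 for the line difference with the combination and 0 to 1 with UNC0638.

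Signs that turned were all of uncalled changes. Under quantile normalization they were CCR1 with GSK126 (0.0519), MAF with both (0.02) and MAF with both against GSK126 (0.11) for RPMI-8226. In MM.1S cells they were ITGB7 with GSK126 (0.0487), UNC0638 (0.22), both (0.12) and both against GSK126 (0.0722), and CCND2 with GSK126 (0.0693). With the percentile over detected probes they were CCR1 with GSK126 (0.0187) and MAF with both against GSK126 (0.0157) for RPMI-8226, and ITGB7 of MM.1S with both against GSK126 (0.0602) and UNC0638 (0.0225). Normexp turned MAF with UNC0638 in RPMI-8226 cells (-0.0050), and gene means NUAK1 with GSK126 in MM.1S cells (-0.11). With 1 array left out, RPMI-8226 values ranged from -0.19 to 0.0111 for CCND2, -0.18 to 0.11 for CCR1 and -0.41 to 0.0428 for MAF with GSK126, -0.21 to 0.25 for MAF with UNC0638 and -0.29 to 0.15 for MAF with both against GSK126. MM.1S values ranged from -0.0718 to 0.19 for NUAK1 with GSK126, and from -0.0598 to 0.25 for MAF and -0.0857 to 0.13 for NUAK1 with both against UNC0638.

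The percentile over detected probes moved the median of all probes by 0.14 (RPMI-8226) and 0.19 (MM.1S) for the combination, and the share of calls that were rises from 56.6 to 75% and from 41.3 to 58.1%. For GSK126 in MM.1S cells that share was 67.6% beside 83.2% with detected probes and 53.5% with normexp, and for UNC0638 43.3% beside 60.1%. Of 1340 recomputed values of the 5 genes in the other comparisons, 1210 kept direction and side of the threshold. Departures from additivity, never called, turned sign in 10 of 90 recomputed values for RPMI-8226 and 6 of 90 for MM.1S, and line differences in the GSK126 response in 6 of 130. The 95% intervals beside uncalled values are not adjusted for the number of probes, and some exclude 0. With 2 arrays per group, an uncalled change is not shown to be absent.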
